A study of Homo sapiens with 8 samples.

Results

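The guides described here were the most abundant single sgRNAs of the Taxol-treated libraries in a pooled knockout screen. They were selected on their normalized read counts in Taxol alone: the 10 highest sgRNAs of each of 3 Taxol libraries were taken, and the union of these lists held 26 of the 7856 sgRNAs in the table. They targeted 23 genes, and none was a non-targeting control. The screen was run in T1-160 cells, which descend from SUM159PT, a triple-negative breast cancer line, and were made resistant by rising doses of Taxol (paclitaxel). The cells expressed Cas9 and were infected with EPIKOL, a lentiviral sgRNA library against chromatin regulators. AP libraries (replicates 1 and 3) came from infected cells collected after puromycin selection without drug, and the cells were then grown for 16 population doublings either in the vehicle DMSO (replicates 1 to 3) or in 160 nM Taxol (replicates 1 to 3). All groups shared the resistant line, Cas9 and the library, and puromycin had been given with verapamil, an inhibitor of the efflux pump ABCB1. Nothing in the labels says whether replicates were separate infections, so p-values measure the spread between these samples, which may be technical. Counts of sgRNAs in genomic DNA hold no expression, so the labelled cell type could not be checked against markers.

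In a pooled screen each cell carries in most cases a single sgRNA, which directs Cas9 to 1 gene, and the share of reads of an sgRNA follows the cells that carry it. Several sgRNAs target each gene, and loss of a gene that limits growth is usually read from sgRNAs that rise together. Taxol stabilizes microtubules and arrests dividing cells in mitosis. The sequences of the sgRNAs were not in the tables used here, so each is given by its gene and the number that ends its identifier (epikol_v2_5873 is SMYD1 5873).

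Shares are the percent of all normalized reads of a library. With 7856 sgRNAs an even library would give each 0.0127%. The libraries held 2045984 to 11771417 reads, or 260.4 to 1498 reads for each sgRNA on average, and the shallowest was Taxol 2. Wilson 95% intervals of the shares were at most 2.61% of the share wide on either side in the Taxol library that chose a guide and at most 15.6% elsewhere, where the fewest reads of a dominant guide were 159. These intervals cover counting error only. Reads carried no molecular identifiers, so more cells with a guide and more amplified copies of it cannot be told apart.

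The 3 lists of 10 had little in common. Of the 26 guides, 23 were in the list of 1 Taxol library only, CXXC1 1583 and GSG2 2426 were in 2, and SMYD1 5873 was in all 3. The same choice in the 3 DMSO libraries gave 19 guides, with 5 in all 3 lists, and in the 2 AP libraries 12 guides, with 8 in both. The leading guide held 0.519% to 0.560% of the DMSO libraries and 2.17% to 5.02% of the Taxol libraries. The edges of the lists were narrow in places. In Taxol 1 the 10th guide, JMJD6 3028, held 0.400% and the 11th, ELP2 1927, held 0.388%. In Taxol 2 JMJD6 3021 and DR1 1829 both held 0.274%, and in Taxol 3 GSG2 2426 held 0.251% and MORF4L2 3734 0.235%.

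Together the 26 guides held 1.66% and 2.98% of AP 1 and AP 3, 2.74%, 2.32% and 2.59% of DMSO 1 to 3, and 11.8%, 7.07% and 10.3% of Taxol 1 to 3. The high Taxol sums follow from the choice and are a description. While these guides were high, the median sgRNA of the library held 0.0107% of AP 1 and 0.0106% of AP 3. It held 0.00940%, 0.00684% and 0.00921% of DMSO 1 to 3 and 0.00481%, 0.00841% and 0.00669% of Taxol 1 to 3. The tests below use normalized counts, on which the median log2 difference of all sgRNAs between Taxol and DMSO was 0.04. A guide can thus hold a lower share in Taxol and still be higher in the tests.

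The AP libraries, which the choice did not use, split the guides into a group of 5 and a group of 21. This split was made after the values were seen. It is a cut at rank 5, and TADA3 6190 stood just beyond it, at ranks 7 and 6 in AP 1 and AP 3. The 5 guides SMYD1 5873, CXXC1 1583, GSG2 2426, TRIM33 6614 and PPP4C 4649 ranked 1 to 5 in both AP libraries, in this order, and no lower than 8 in any DMSO library and 49 in any Taxol library.

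SMYD1 5873, against a lysine methyltransferase of heart and skeletal muscle, held 0.370% and 0.740% of AP 1 and AP 3, 0.547%, 0.519% and 0.560% of DMSO 1 to 3, and 0.424%, 0.893% and 0.527% of Taxol 1 to 3. CXXC1 1583, against the CpG-binding subunit of the SETD1 methyltransferase complexes, held 0.224% and 0.424% of the AP, 0.319%, 0.310% and 0.297% of the DMSO and 0.235%, 0.478% and 0.291% of the Taxol libraries. For GSG2 2426, against the histone H3 kinase haspin (current symbol HASPIN), the shares were 0.173% and 0.328% in AP, 0.238%, 0.241% and 0.241% in DMSO and 0.189%, 0.429% and 0.251% in Taxol. In all 3 the Taxol and DMSO shares overlapped, with Taxol 1 below every DMSO library and Taxol 2 above.

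TRIM33 6614, against a ubiquitin ligase that reads histone H3, held 0.151% and 0.320% in AP, 0.236%, 0.228% and 0.240% in DMSO and 0.210%, 0.386% and 0.230% in Taxol. PPP4C 4649, against the catalytic subunit of protein phosphatase 4, held 0.128% and 0.251% in AP, 0.172%, 0.168% and 0.175% in DMSO and 0.147%, 0.309% and 0.183% in Taxol. All 5 were highest in Taxol 2, next highest in AP 3 and lowest in AP 1. Their summed share was 1.05% and 2.06% in AP, 1.51%, 1.47% and 1.51% in DMSO, and 1.21%, 2.49% and 1.48% in Taxol. Their share in the best Taxol library was 1.64 to 1.71 times that in the next one.

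The other 21 guides were each in the top 10 of a single Taxol library. Some also ranked high elsewhere. TADA3 6190 ranked 2, 15 and 10 in DMSO 1 to 3 and 16 and 26 in Taxol 2 and Taxol 3. MYSM1 3904 and TDRD7 6375 ranked 23 and 20 in Taxol 3. In the library that chose them, the shares of the 21 guides were 3.10 to 58.4 times the higher of the other 2 Taxol libraries (median 15.1). They were 4.62 to 67.1 times the highest DMSO library (median 11.6). Outside the library that chose them, their shares lay between 0.00408% and 0.358%, with a median of 0.0346%. They summed to 0.613% and 0.920% of the AP libraries, 1.23%, 0.857% and 1.07% of the DMSO libraries and 10.6%, 4.57% and 8.81% of Taxol 1 to 3. All 3 Taxol libraries lay above all 3 DMSO libraries for 3 of them, MYSM1 3904, JMJD6 3028 and JMJD6 3021. Over all sgRNAs this was so for 374 (4.76%). The choice used the Taxol side of this comparison, so nothing is read from the count.

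Acetyltransferase and deubiquitinase subunits led Taxol 1. TADA3 6190, against an adaptor of the SAGA and ATAC acetyltransferase complexes, held 0.101% and 0.168% in AP, 0.358%, 0.124% and 0.146% in DMSO and 3.92%, 0.209% and 0.157% in Taxol. ATXN7 543, against the subunit that anchors the deubiquitinase module to SAGA, held 0.0431% and 0.0720% in AP, 0.105%, 0.0503% and 0.0753% in DMSO and 1.37%, 0.0804% and 0.0703% in Taxol. MYSM1 3904, against a histone H2A deubiquitinase, held 0.0312% and 0.0532% in AP, 0.0422%, 0.0346% and 0.0429% in DMSO and 1.04%, 0.0565% and 0.166% in Taxol. TADA3 6190 and ATXN7 543 were also highest in DMSO 1 among the DMSO libraries and lay within the DMSO range in Taxol 2 and Taxol 3, whereas MYSM1 3904 was above every DMSO library in all 3.

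JMJD6, a JmjC-domain hydroxylase, was the gene with most dominant guides, 3 of its 10. JMJD6 3030 held 0.0363% and 0.0477% in AP, 0.0611%, 0.136% and 0.0446% in DMSO and 0.883%, 0.0562% and 0.0716% in Taxol. JMJD6 3028 held 0.0127% and 0.0252% in AP, 0.0160%, 0.0204% and 0.0204% in DMSO and 0.400%, 0.0225% and 0.0477% in Taxol. JMJD6 3021 held 0.0236% and 0.0368% in AP, 0.0402%, 0.0157% and 0.0361% in DMSO and 0.0886%, 0.274% and 0.0551% in Taxol. The first 2 were highest in Taxol 1 and the last in Taxol 2, where it exceeded the next Taxol library only 3.10-fold, the smallest ratio among the 21.

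APOBEC1, a cytidine deaminase that edits RNA, had 2 dominant guides, in different libraries. APOBEC1 226 held 0.0239% and 0.0434% in AP, 0.0315%, 0.0324% and 0.0293% in DMSO and 0.0225%, 2.17% and 0.0372% in Taxol. APOBEC1 229 held 0.0215% and 0.0190% in AP, 0.0157%, 0.0144% and 0.0723% in DMSO and 0.0206%, 0.0175% and 0.334% in Taxol. The 58.4-fold excess of APOBEC1 226 in Taxol 2 was the largest of the 21, and its DMSO shares differed little. APOBEC1 229 was 4.80 times higher in DMSO 3 than the mean of the other 2 DMSO libraries.

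Deacetylase subunits followed the same form. SIRT2 5681, against an NAD-dependent deacetylase whose substrates include tubulin, reached the highest share of any guide in any library. It held 0.0536% and 0.0887% in AP, 0.0714%, 0.0589% and 0.154% in DMSO and 0.0467%, 0.0979% and 5.02% in Taxol. SAP30 5362, against a subunit of the SIN3 deacetylase complex, held 0.0119% and 0.0304% in AP, 0.0489%, 0.0176% and 0.0216% in DMSO and 0.541%, 0.0308% and 0.0656% in Taxol. SIRT2 5681 was highest in DMSO 3 among the DMSO libraries, as in Taxol 3, and SAP30 5362 was highest in number 1 of both groups.

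Guides against writers of methylation and a PR-domain protein were spread over the 3 libraries. DNMT3A 1728, against a de novo DNA methyltransferase, held 0.0258% and 0.0431% in AP, 0.0404%, 0.0445% and 0.0361% in DMSO and 0.689%, 0.0436% and 0.0360% in Taxol. RBBP5 5112, against a core subunit shared by the COMPASS-MLL complexes, held 0.0233% and 0.0378% in AP, 0.0412%, 0.0266% and 0.0509% in DMSO and 0.403%, 0.0273% and 0.0244% in Taxol. Both were high in Taxol 1 only. SUV420H2 6125, against a histone H4 lysine methyltransferase (current symbol KMT5C), held 0.0160% and 0.0217% in AP, 0.0287%, 0.0109% and 0.0111% in DMSO and 0.00969%, 0.0215% and 0.510% in Taxol. PRDM4 4734, against a PR-domain zinc finger protein, held 0.0395% and 0.0364% in AP, 0.0694%, 0.0509% and 0.0344% in DMSO and 0.0658%, 0.509% and 0.0191% in Taxol. SUV420H2 6125 was high in Taxol 3 and PRDM4 4734 in Taxol 2.

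Both guides against remodelling subunits were high in Taxol 3. SMARCC2 5802, against a scaffold subunit of SWI/SNF, held 0.0188% and 0.0252% in AP, 0.0142%, 0.0230% and 0.0684% in DMSO and 0.00868%, 0.0341% and 0.790% in Taxol. BAZ1A 648, against the ACF1 subunit of an ISWI remodeller, held 0.0123% and 0.0172% in AP, 0.00877%, 0.00831% and 0.0228% in DMSO and 0.0100%, 0.0207% and 0.362% in Taxol. Each was also highest in DMSO 3 among the DMSO libraries, 3.69 and 2.67 times the mean of the other 2.

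The ubiquitin and SUMO pathway contributed RBX1 and SENP1. RBX1 5139, against the RING subunit of cullin ubiquitin ligases, held 0.00561% and 0.00934% in AP, 0.00538%, 0.00408% and 0.0192% in DMSO and 0.00456%, 0.00777% and 0.252% in Taxol. SENP1 5439, against a SUMO protease, held 0.0181% and 0.0180% in AP, 0.0569%, 0.0232% and 0.0211% in DMSO and 0.0531%, 0.410% and 0.0139% in Taxol. RBX1 5139 was the least abundant of the 26 guides in AP and the only one below the AP median, and ranked 4067 or lower in Taxol 1 and Taxol 2 against 9 in Taxol 3.

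The last 3 guides targeted genes outside these classes. TDRD7 6375, against a Tudor-domain protein of RNA granules, held 0.0286% and 0.0563% in AP, 0.0727%, 0.0474% and 0.0625% in DMSO and 0.964%, 0.0639% and 0.176% in Taxol. NFYB 4090, against a histone-fold subunit of the CCAAT-binding factor NF-Y, held 0.0320% and 0.0459% in AP, 0.0775%, 0.0649% and 0.0755% in DMSO and 0.0265%, 0.0427% and 0.575% in Taxol. RPS6KA5 5273, against the histone kinase MSK1, held 0.0341% and 0.0242% in AP, 0.0251%, 0.0484% and 0.0275% in DMSO and 0.0161%, 0.370% and 0.0245% in Taxol. In share, NFYB 4090 and RPS6KA5 5273 were lower in the other 2 Taxol libraries than in every DMSO library. On log2 normalized counts, in the fits described below without the library that chose them, they were at -0.78 ± 0.75 and -0.19 ± 0.76 (SE) against DMSO.

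The 21 guides were mostly abundant at the start. In AP 20 of 21 lay above the median sgRNA and 13 above the 90th percentile, from the 29.7th percentile for RBX1 5139 to the 99.9th for TADA3 6190. Guides far above the rest of their group were not limited to the dominant ones. An excess in share of 10-fold or more over the higher of the other 2 libraries of the group was seen for 19, 35 and 41 sgRNAs in Taxol 1 to 3, of which 5, 2 and 7 were dominant, and for 7, 10 and 8 sgRNAs in DMSO 1 to 3, none of them dominant.

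The number of the Taxol library that chose a guide was compared with the number of its highest DMSO library, since DMSO and Taxol samples of the same number deviated together over all sgRNAs. The numbers matched for 11 of the 21 guides (52.4%) and for 37.8% of all sgRNAs. They matched for 5 of 7 guides chosen in Taxol 3, 4 of 9 in Taxol 1 and 2 of 5 in Taxol 2. Among all sgRNAs that were highest in these libraries, the match was 44.8%, 44.4% and 31.4%. This is given as a description with no test.

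To ask whether a guide was also high in the other Taxol libraries, the 10 guides of each Taxol library were tested against DMSO in a fit without that library, which gave 30 values for the 26 guides. For the 23 guides in 1 list only, the Taxol libraries left in the fit did not list them. That set holds no guide from the top 10 of those libraries, so its values are not free of the choice. At least 1 of those libraries listed SMYD1 5873, CXXC1 1583 and GSG2 2426, which were set apart. Their 7 values, between 0.28 and 0.58, are a description. In the fit without Taxol 2 they were 0.32, 0.28 and 0.37 on log2 normalized counts. In share, the mean of Taxol 1 and Taxol 3 was 0.88, 0.85 and 0.92 times the DMSO mean. The direction for these guides thus rests on the scale. On log2(normalized count + 1), 15 of the 23 were above 0, with a median of 0.13, while the medians over all sgRNAs were -0.03, 0.04 and 0.01 in the fits without Taxol 1, 2 and 3. None passed an adjusted p of 0.05 (limma, Benjamini-Hochberg over all 7856 sgRNAs, lowest adjusted p = 0.9504, and none with limma-voom on recovered reads). At an unadjusted p of 0.05, 1 guide was higher, JMJD6 3021, with 1.82 ± 0.75 (SE; limma, unadjusted p = 0.0313, adjusted p = 0.9504), and 0 were lower. Over all sgRNAs, 2.14%, 3.56% and 3.07% were higher at that threshold in the 3 fits, and 0.904%, 0.955% and 0.980% were lower.

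The fit without a block kept the DMSO library paired with the Taxol library left out. With the replicate number as a block, 19 of 23 were above 0, with a median of 0.46, and none passed the unadjusted threshold. With libraries centred on the 80 non-targeting sgRNAs, which lowered all values by 0.17 in the fit of all 6 libraries, 11 of 23 were above 0 and the median was -0.03. With a further library left out, 15 to 18 of 23 were above 0. The median was 0.34, 0.27 and 0.31 without DMSO 1, 2 and 3, and 0.27 without Taxol 2 and 0.07 without Taxol 3. The number higher at the unadjusted threshold was 0 without any one DMSO library or Taxol 1, and 3 without Taxol 2. For the 21 single-library guides alone, 13 were above 0 with a median of 0.07, and 17 with a median of 0.33 under the block.

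The next largest values were 1.38 ± 0.67 for MYSM1 3904, 0.92 ± 0.65 for TDRD7 6375, 0.89 ± 0.68 for JMJD6 3028 and 0.86 ± 0.70 for SAP30 5362, all from Taxol 1, and none passed the unadjusted threshold. The leading guides of the libraries had values smaller than their SE in the fits without those libraries. These were 0.05 ± 0.57 for TADA3 6190, -0.03 ± 0.77 for SIRT2 5681 and 0.41 ± 0.72 for APOBEC1 226. The fit for TADA3 6190 kept DMSO 1, its highest DMSO library. NFYB 4090 was lowest, at -0.78 ± 0.75.

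DMSO was compared with AP to see how the dominant guides fared in culture without the drug. With both AP libraries, 26 of 26 were above 0, with a median of 0.60, while 56.7% of all sgRNAs were above 0 and their median was 0.13. The count and size rested on which AP library was used: without AP 1, 16 of 26 were above 0, with a median of 0.24, and without AP 3, 26 of 26 with a median of 0.94. Without DMSO 1 and DMSO 3, 25 and 24 were above 0. None passed after adjustment (limma, lowest adjusted p = 0.706, and none with limma-voom on recovered reads). At an unadjusted p of 0.05, 1 was higher, NFYB 4090, with 1.30 ± 0.49 (SE; limma, unadjusted p = 0.0176, adjusted p = 0.706), and 0 were lower, against 3.16% and 3.63% of all sgRNAs. JMJD6 3030 (1.17 ± 0.60), SENP1 5439 (1.13 ± 0.58), TDRD7 6375 (0.96 ± 0.52) and TADA3 6190 (0.90 ± 0.50) followed. SUV420H2 6125 and BAZ1A 648 were both at 0.08. The number higher at the unadjusted threshold was 0 without AP 1, 3 without AP 3, 5 without DMSO 2 and 3 without DMSO 3. Centring on non-targeting sgRNAs lowered all values by 0.31, which left 24 of 26 above 0 and none past the unadjusted threshold. The choice used no DMSO library, but DMSO and Taxol samples of the same number deviated together, so this comparison is not free of the choice.

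The other sgRNAs of the same 23 genes were then compared between Taxol and DMSO. These 204 sgRNAs, 7 for JMJD6, 8 for APOBEC1 and 9 for each other gene, did not enter the choice. Taken singly, 107 of 204 (52.5%) were higher in Taxol, against 52.2% of all sgRNAs, with a median of 0.03 against 0.04. None passed after adjustment (limma, lowest adjusted p = 0.965, and none with limma-voom). At an unadjusted p of 0.05, 1 was higher, ATXN7 542, at 1.54 ± 0.69, and 6 were lower, against 2.04% and 1.55% of all sgRNAs. The 6 were PRDM4 4733, SENP1 5440, SMARCC2 5805, SAP30 5368, APOBEC1 223 and GSG2 2428. These counts changed with the libraries used. With the replicate block 5 were higher and 6 lower, and with any 1 library left out 3 to 6 were higher and 2 to 7 lower, with 5 higher and 2 lower without Taxol 1 and also without Taxol 2.

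Some of these other guides were also far higher in 1 Taxol library than in the other 2. Of the 204, 11 (5.39%) exceeded their share in the higher of the other 2 Taxol libraries 5-fold or more in 1 library and 4 (1.96%) 10-fold or more, against 5.67% and 1.21% of the 7855 sgRNAs above 0, the dominant ones included. The 4 guides, named after their values were seen, were SENP1 5437 (39.3-fold, Taxol 2), JMJD6 3023 (15.5-fold, Taxol 3), SMARCC2 5804 (11.2-fold, Taxol 2) and GSG2 2430 (10.0-fold, Taxol 1). Over the highest DMSO library they were, in this order, 23.3-fold, 11.9-fold, 1.56-fold and 1.21-fold higher. That ratio was at least 4.62 for the 21 dominant guides of a single library, so SMARCC2 5804 and GSG2 2430 differed from them. JMJD6 3023 held 0.00604%, 0.00351% and 0.0114% in DMSO and 0.00269%, 0.00875% and 0.135% in Taxol. The dominant guides of JMJD6 were highest in Taxol 1 or Taxol 2, and JMJD6 3021 exceeded the next Taxol library only 3.10-fold. Those guides were chosen on high Taxol counts. How many other genes had guides highest in each of the 3 Taxol libraries was not counted, so nothing is read from this.

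The mean over the other guides of a gene gave 12 of 23 genes above 0 in Taxol against DMSO, with a median of 0.04 (54.4% of the 779 genes tested, median 0.02). No gene passed after adjustment (limma, lowest adjusted p = 0.477), as against 0.128% of all genes called higher and 0% lower. At an unadjusted p of 0.05, TADA3 and JMJD6 were higher and BAZ1A and SMARCC2 lower, against 4.62% and 1.80% of all genes. Taxol and DMSO libraries did not overlap for TADA3, which was above, and for BAZ1A, NFYB (-0.49 ± 0.25) and CXXC1 (-0.18 ± 0.22), which were below. The share of all genes without overlap was not computed, so nothing is read from this. With all guides counted, 17 of 23 genes were above 0, and leaving the dominant guides out lowered the gene mean by 0.03 to 0.40 (median 0.14) and turned the sign of 5 genes. The dominant guides were chosen on high Taxol counts, so these values follow from the choice and are a description. Centred on non-targeting sgRNAs, 8 of 23 gene means were above 0 and their median was -0.13. Without Taxol 1, 8 of 23 were above 0, with a median of -0.08, and none was lower at the unadjusted threshold.

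For TADA3 the mean log2 level of the other 9 guides was 8.72, 8.86 and 8.90 in DMSO 1 to 3 and 9.74, 9.37 and 9.67 in Taxol 1 to 3. The groups did not overlap, and 8 of the 9 guides were above 0. The difference was 0.77 ± 0.24 (SE; limma, unadjusted p = 0.00263, adjusted p = 0.477), and it stayed between 0.60 and 0.88 under all 15 alternatives. The other guides of TADA3 were thus high in Taxol 2 and Taxol 3 also. The share of its dominant guide there lay within the DMSO range, whose upper end was DMSO 1 (0.358%). It held 0.209% of Taxol 2 and 0.157% of Taxol 3, above the DMSO libraries of the same number (0.124% and 0.146%). Whether the dominant guide and the other guides differed in these libraries was not tested.

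For JMJD6 the mean log2 level of the other 7 guides was 8.48, 8.68 and 8.92 in DMSO and 9.31, 8.71 and 10.11 in Taxol. Taxol 2 lay within the DMSO range and Taxol 3 was highest. The difference was 0.69 ± 0.27 (SE; limma, unadjusted p = 0.0150, adjusted p = 0.648), with 6 of 7 guides above 0. Without Taxol 3 it was 0.32 (unadjusted p = 0.227) and without Taxol 2 it was 1.02 (unadjusted p = 0.000452, adjusted p = 0.0704). Without DMSO 1 it was 0.58 (unadjusted p = 0.0853) and centred on non-targeting sgRNAs it was 0.52 (unadjusted p = 0.0752).

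BAZ1A and SMARCC2 had other guides on the side opposite to their dominant guide. The other 9 guides of BAZ1A had a mean log2 level of 8.62, 8.65 and 8.58 in DMSO and 7.92, 8.28 and 8.14 in Taxol, with no overlap and 0 of 9 guides above 0. The difference was -0.50 ± 0.21 (SE; limma, unadjusted p = 0.0243, adjusted p = 0.716), and without Taxol 1 it was -0.41 (unadjusted p = 0.0773). For SMARCC2 the levels were 8.90, 8.63 and 8.31 in DMSO and 8.17, 8.40 and 7.85 in Taxol, which overlapped. Its difference was -0.47 ± 0.23 (SE; limma, unadjusted p = 0.0433, adjusted p = 0.7495), with 1 of 9 guides above 0, and it was -0.33 (unadjusted p = 0.195) without DMSO 1 and also without Taxol 3. The genes of the other guides at the head of a library were closer to 0. SIRT2 was at 0.24 ± 0.23 and APOBEC1 at -0.20 ± 0.24, with 5 of 9 and 4 of 8 other guides above 0.

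Against AP, the other guides gave 16 of 23 genes above 0 in Taxol, with a median of 0.23. Of all genes, 67.4% were above 0 there, with a median of 0.19. In DMSO 18 of 23 were above 0, with a median of 0.27, against 63.3% of all genes and a median of 0.15. Both comparisons share the AP libraries. In Taxol against AP no gene passed after adjustment (limma, lowest adjusted p = 0.0760, 0.128% of all genes called higher and 0% lower). At an unadjusted p of 0.05, 7 genes were higher and 2 lower, against 16.9% and 6.29% of all genes, and 3 were higher without AP 1 and 4 without Taxol 3. The highest values were 1.17 ± 0.33 for JMJD6, 1.09 ± 0.23 for TADA3 and 1.04 ± 0.34 for TDRD7, and the lowest were -0.91 ± 0.22 for PPP4C and -0.88 ± 0.24 for RBX1. Without Taxol 2, JMJD6 (1.51) and TADA3 (1.20) both passed with an adjusted p of 0.0423 by limma. Centred on non-targeting sgRNAs, which lowered all Taxol against AP values by 0.53, 7 of 23 genes were above 0. Of the 23, 4 were then called lower, namely RBX1, PPP4C, BAZ1A and RBBP5. The share of all genes called without Taxol 2 or with this centring was not computed, so nothing is read from these calls.

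In DMSO against AP, PPP4C was the only one of the 23 genes called, against 0.770% of all genes called higher and 1.41% lower. At an unadjusted p of 0.05, 2 genes were higher and 3 lower, against 11.8% and 8.60% of all genes, and the number higher was 0 without AP 1 and 4 without DMSO 1 or DMSO 3. The other 9 guides of PPP4C had a mean log2 level of 9.23 and 9.17 in AP and 8.09, 8.32 and 7.92 in DMSO. The fall was larger than the spread between samples, at -1.09 ± 0.22 (SE; limma, adjusted p = 0.0214). PPP4C 4649 itself was at 0.32 ± 0.46 in the same comparison, and the difference between them was not tested. The call was lost without AP 1 (-1.06, adjusted p = 0.519), AP 3 (-1.12, adjusted p = 0.0751), DMSO 1 (-1.08, adjusted p = 0.103) or DMSO 3 (-0.998, adjusted p = 0.0691), with the fall nearly the same each time. RBX1, whose other guides were at -0.85 ± 0.25 (limma, adjusted p = 0.0789), had its dominant guide at 0.44 ± 0.71. SAP30 was highest, at 0.79 ± 0.22 (limma, adjusted p = 0.0698), beside 0.86 ± 0.62 for its dominant guide. Centred on non-targeting sgRNAs, 10 of 23 genes were above 0.

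The complexes to which the dominant guides belong were described from the same Taxol against DMSO fit, without any dominant guide. In the SAGA deubiquitinase module, which holds ATXN7, 4 of 4 measured genes were above 0, with a median of 0.42. USP22, its catalytic subunit, rose by 1.54 ± 0.26 (SE; limma, adjusted p = 0.000605), and ATXN7L3 was at 0.52 ± 0.24 (adjusted p = 0.743). In the SAGA and ATAC acetyltransferase and core list, which holds TADA3, 12 of 16 were above 0, with a median of 0.18, and TADA3, DR1 (0.61) and TADA2A (0.50) were higher at an unadjusted p of 0.05.

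The other lists had no called gene. In SWI/SNF, with SMARCC2, 7 of 21 genes were above 0 (median -0.12). In COMPASS-MLL, with RBBP5 and CXXC1, 7 of 16 were above 0 (median -0.10), and MEN1, the menin scaffold, was at -0.80 ± 0.24 (limma, adjusted p = 0.477). In SIN3, with SAP30, 7 of 15 were above 0 (median -0.04), with SUDS3 at 0.57 and ARID4A at 0.56. In the JmjC list 8 of 20 were above 0 (median -0.13), with JMJD6 and PHF2 (0.48) higher at an unadjusted p of 0.05. The median of all 779 genes was 0.02, and the lists were described by counts with no test.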

How the data were processed

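Libraries of sgRNA amplicons from genomic DNA were analysed for 2 AP, 3 DMSO and 3 Taxol samples. The authors' deposited sgRNA summaries, 1 table per comparison, came from MAGeCK 0.5.8 per the labels and hold normalized counts of a group joined in 1 cell (a text entry, unit other), together with fold changes and p-values of the authors' own comparisons, which were not used. Read trimming and mapping settings are not given in the labels or methods used. Values were taken in order of the replicate numbers, and 2 value columns that matched no labelled AP sample were not used. Shares were computed within a library, and every test within a table, since tables were scaled separately. Whole reads were recovered from the step of the normalized values (99.1% to 99.97% of sgRNAs whole within 0.1 read), and give the depths; they are approximate because values carry 5 digits.

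The test was limma 3.58.1 (R 4.3.3; lmFit and eBayes with trend) on log2(normalized count + 1), two-sided, with Benjamini-Hochberg adjustment over all rows and calls at an adjusted p under 0.05. Differences are log2 and understate change at low counts. Gene values are means over at least 3 sgRNAs after all dominant ones were left out. The fits were tested on simulated data. DMSO and Taxol samples of the same number deviated together (correlation of deviations from group means 0.17, 0.13 and 0.21 over sgRNAs). Every mismatched pair was below 0, which is favoured because deviations from a group mean sum to 0. DMSO and Taxol numbers were therefore read as pairs, but the main fits held no block. The replicate block was run as an alternative only. AP numbers were not read as pairs (-0.02 to 0.04). Every dominant guide and its gene was named, other genes only from complex lists at an unadjusted p under 0.05. The members, lists and tests were chosen with earlier results of these data known. Current symbols came from RefSeq (21 of 23 unchanged).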

Additional observations from a re-analysis of the deposited data

How the results depend on the processing

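Counts of calls after adjustment were 0 under every alternative for single other guides, for dominant guides with the Taxol library that chose them left out, for dominant guides in DMSO against AP and for gene means in Taxol against DMSO, including the replicate block. These alternatives were a pseudocount of 10, a filter at a mean of 50, centring on non-targeting sgRNAs, TMM, no trend, the block, the top 5 or top 20 guides per library, each library left out and, for single guides, limma-voom on recovered reads, which was chosen after seeing the data; the median over guides was run for gene means. The planned count test of another package was not run. For other guides in Taxol against AP, calls were 0, and 4 with non-targeting centring, 7 with the replicate block, and 0 to 2 with a library left out. In DMSO against AP, calls were 1, and 2 with TMM, 2 with the replicate block, 0 with the top 5, 3 with the top 20 and 0 to 1 with a library left out; the block also gave 7 dominant guides higher at an unadjusted p of 0.05 in place of 1. The share of all genes or sgRNAs called was computed for the main fits only, so nothing is read from the counts under these alternatives. AP numbers did not pair the samples, and leaving out 1 AP library leaves a lone sample assumed to vary like DMSO or Taxol. There was no AP 2 sample, so under the block Taxol 2 or DMSO 2 added nothing to the estimates against AP. These equalled the estimates without that library, as 1.51 for JMJD6 in Taxol and -1.2 for PPP4C in DMSO, and only the error term differed. The cause of the other changes was not tested.

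Gene means of the other guides that were near 0 in Taxol against DMSO and called in neither direction changed sign as follows. With non-targeting centring DNMT3A was at -0.0458, MYSM1 at -0.0333, PPP4C at -0.0332 and SUV420H2 at -0.13. With the median over guides RBX1 was at 0.19, SIRT2 at -0.26 and SUV420H2 at -0.010, and with the filter at 50 RBX1 was at 0.0026. With a library left out the ranges were -0.34 to 0.0280 for APOBEC1, -0.0268 to 0.23 for DNMT3A, -0.0798 to 0.41 for MYSM1, -0.0128 to 0.27 for PPP4C, -0.21 to 0.10 for RBX1, -0.11 to 0.0205 for RPS6KA5, -0.27 to 0.11 for SAP30, -0.0234 to 0.46 for SIRT2, -0.29 to 0.23 for SMYD1, -0.0341 to 0.16 for SUV420H2 and -0.25 to 0.53 for TRIM33. Depth limits the rarest guides most, and Taxol 2 was shallowest.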
